A study of Homo sapiens with 6 samples.

Results

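The genes described here are 38 human genes of G2 and mitosis, taken by symbol as a fixed list: the mitotic cyclins with CDK1 and its regulators, mitotic kinases, spindle checkpoint and kinetochore genes, spindle kinesins and other spindle proteins, genes of anaphase ubiquitination, and 3 genes of chromosomes and cytokinesis. All 38 were among the 56832 symbols counted and all 38 passed the filter on low counts, which left 18061 genes for testing. Their counts ran from 744 to 28482 reads per library. The libraries come from HEK293T, a human line of embryonic kidney origin, transformed with adenovirus sequences and expressing the SV40 large T antigen. Poly(A)-selected RNA was sequenced from 3 libraries of wild-type cells and 3 of SMARCA3 knockout cells. SMARCA3 is the chromatin ATPase and ubiquitin ligase encoded by HLTF. Both groups were grown in the same serum-containing medium, with no drug or time point in the labels. The sources used here do not give the editing method, the number of knockout clones or whether replicates were separate cultures. The p-values therefore rest on the spread between these libraries alone, which may be technical.

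Cells build up cyclin A and then cyclin B during S phase and G2, and their partner kinase CDK1, once freed of inhibitory phosphates by CDC25 phosphatases, drives entry into mitosis. Kinesins and microtubule proteins then shape the spindle, kinetochores attach chromosomes to it, and the spindle checkpoint holds the anaphase-promoting complex (APC/C) inactive until all are attached. The mRNAs of these genes rise and fall with the cell cycle. Many of their promoters carry CCAAT boxes, which bind NF-Y, and a cell cycle homology region (CHR), which binds the DREAM repressor or the MuvB activator complex with B-MYB and FOXM1. The mRNAs were measured in unsynchronised bulk cells, in which fewer cells in G2 or mitosis and less of an mRNA per cell cannot be told apart.

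Total counts were 33125811 to 41593655 per library, with every knockout library below every wild-type one. HLTF mRNA stood at 215, 191 and 195 CPM (counts per 1000000, scaled between libraries) for the wild-type replicates, in order, and at 141, 140 and 149 CPM for the knockout. It was thus lower but present in the knockout, at -0.48 on the log2 scale with SE 0.05 (edgeR adjusted p = 4.65e-05, exact two-sided permutation p = 0.1, the smallest that 3 against 3 allow), beside a median of -0.50 for its 40 nearest expressed genes. With that median removed HLTF stood at 0.02 on the log2 scale (edgeR adjusted p = 0.828). The protein was not measured. Of 10 kidney and epithelial lineage markers, 9 passed the filter, summing to 386 to 404 CPM in wild-type and 290 to 297 CPM in knockout libraries, while PAX8 had 5 counts in all. Marker lists of blood, fibroblasts and hepatocytes summed to at most 8.40 CPM in any library, with CD3E, HBB, DCN and SERPINA1 at 0 counts throughout. The part of the marker difference in the results was not tested.

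Of the 38 mRNAs, 14 fell in the knockout, among them those of the mitotic cyclins, Aurora kinases, CDC25B and securin. With edgeR, 3 others rose and 21 were not called at an adjusted p of 0.05, so that 17 were called in either direction, beside 31.8% of all genes tested. The 14 falls are 36.8% of the genes, beside 17.7% called lower over all genes tested, and the 3 rises are 7.89%, beside 14.0% called higher. The median log2 fold change was -0.11, against 0.00 over all genes, and 31 of 38 values were below 0, called or not. The changes were small: CCNB1 fell by 23.04%, the largest fall, and TOP2A rose by 26.6%, the largest rise. The count of falls depended on single libraries, with 7 without knockout replicate 1 and 8 without knockout replicate 2, and DESeq2 called 9. CPM ranges of the groups did not overlap for 16 genes that were lower and 4 that were higher, beside 24.4% and 21.2% of all genes.

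**Figure D1:**
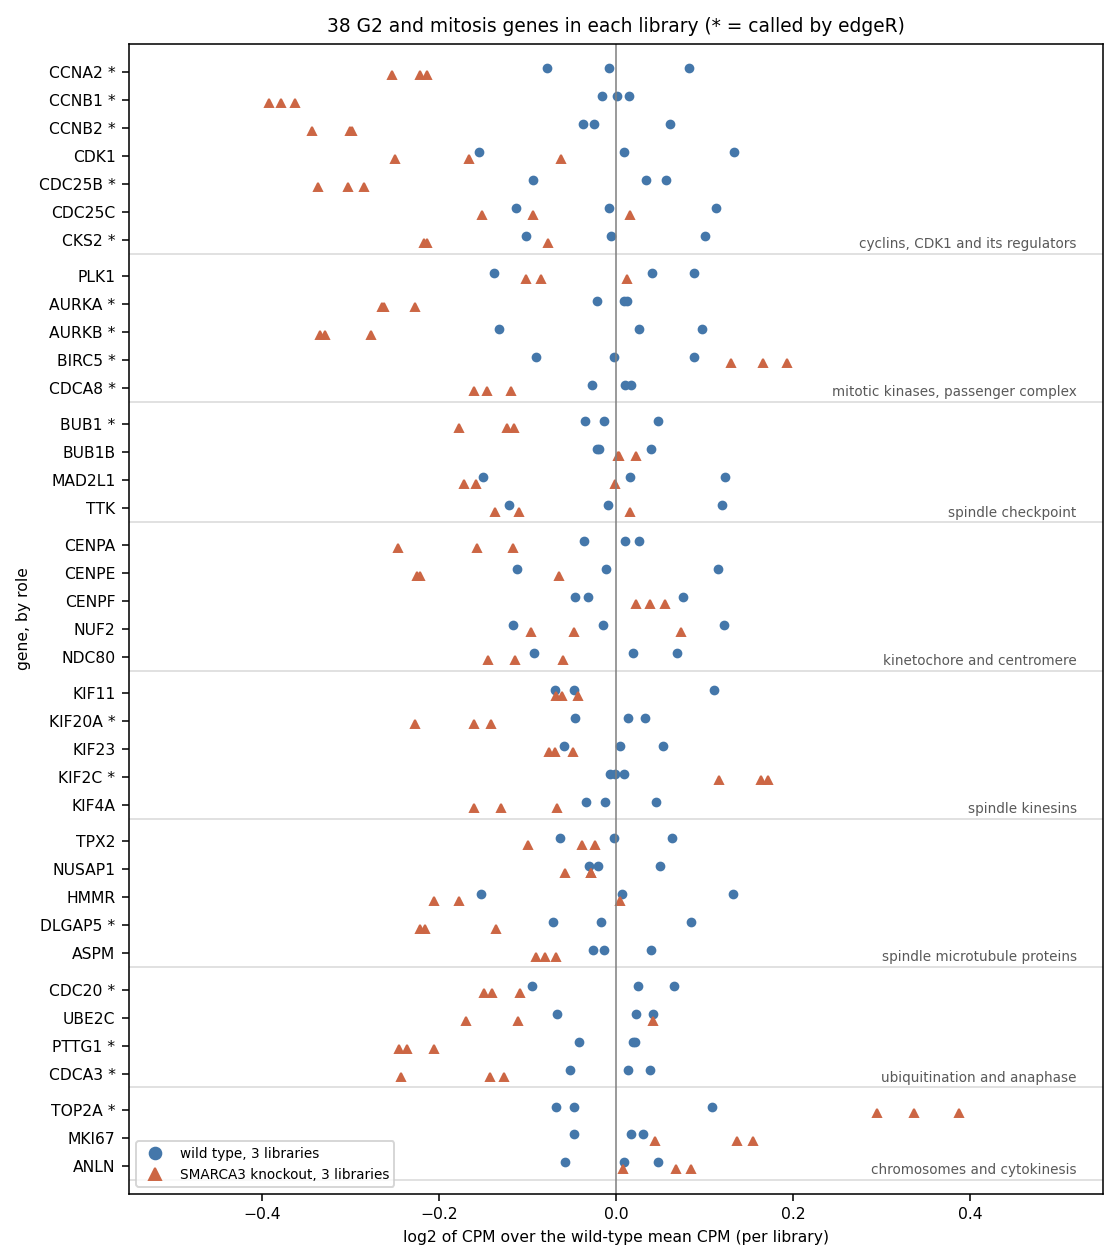
Each row is 1 of the 38 genes, grouped by role, and each point 1 library, placed by the log2 of its CPM over the mean CPM of the 3 wild-type libraries (circles wild type, triangles SMARCA3 knockout; an asterisk marks genes called by edgeR). CCNB1, CCNB2, CDC25B and AURKB have all 3 knockout libraries well left of the wild-type libraries, TOP2A has them to the right, and most kinetochore and spindle genes overlap.

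Promoters of 33 of the 38 genes were matched by symbol in a RefSeq table (GRCh38.p14, the build of the counts) that gives 250 bases before and 50 after the start. Of them, 8 are shown as examples over the 150 bases before the start, 4 genes that fell, 2 that rose and 2 that were not called. Letters are 5′ to 3′ on the gene's strand, and capitals mark CCAAT or its reverse complement ATTGG, and the CHR letters TTTGAA or TTCAAA. The windows lie at chr5:69167000-69167149 (plus) for CCNB1, chr15:59104996-59105145 (plus) for CCNB2, chr4:121823884-121824033 (minus) for CCNA2 and chr5:160421705-160421854 (plus) for PTTG1. Those of TOP2A, KIF2C, PLK1 and HMMR lie at chr17:40417897-40418046 (minus), chr1:44739687-44739836 (plus), chr16:23678739-23678888 (plus) and chr5:163460482-163460631 (plus).
CCNB1: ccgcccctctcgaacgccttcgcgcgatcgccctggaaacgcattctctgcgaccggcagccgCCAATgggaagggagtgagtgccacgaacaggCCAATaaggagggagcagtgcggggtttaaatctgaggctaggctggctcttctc
CCNB2: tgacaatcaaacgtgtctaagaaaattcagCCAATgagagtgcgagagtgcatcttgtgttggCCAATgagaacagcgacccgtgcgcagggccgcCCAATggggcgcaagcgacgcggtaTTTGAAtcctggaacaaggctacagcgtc
CCNA2: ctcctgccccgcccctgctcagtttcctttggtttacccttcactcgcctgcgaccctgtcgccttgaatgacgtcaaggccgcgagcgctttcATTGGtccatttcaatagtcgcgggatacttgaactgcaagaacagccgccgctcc
PTTG1: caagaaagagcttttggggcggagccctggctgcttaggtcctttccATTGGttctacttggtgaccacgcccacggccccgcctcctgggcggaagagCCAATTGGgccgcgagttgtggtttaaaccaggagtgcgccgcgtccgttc
TOP2A: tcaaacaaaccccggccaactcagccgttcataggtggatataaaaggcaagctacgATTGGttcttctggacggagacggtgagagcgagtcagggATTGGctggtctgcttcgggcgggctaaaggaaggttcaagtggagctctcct
KIF2C: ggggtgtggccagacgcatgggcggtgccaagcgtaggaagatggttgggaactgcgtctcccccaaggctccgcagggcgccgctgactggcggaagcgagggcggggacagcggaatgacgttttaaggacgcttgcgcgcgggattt
PLK1: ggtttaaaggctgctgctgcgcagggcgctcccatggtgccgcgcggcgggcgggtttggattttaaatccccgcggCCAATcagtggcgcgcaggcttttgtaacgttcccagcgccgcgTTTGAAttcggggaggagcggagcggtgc
HMMR: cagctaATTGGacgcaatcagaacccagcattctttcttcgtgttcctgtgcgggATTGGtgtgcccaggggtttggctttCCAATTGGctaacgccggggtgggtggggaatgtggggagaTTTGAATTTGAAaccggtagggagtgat

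CCNB1 holds 2 CCAAT boxes, CCNA2 1 and PTTG1 3 CCAAT matches, all without TTTGAA. CCNB2 holds both elements, and KIF2C holds neither. The PTTG1 matches at -51 and -48 are 1 stretch, CCAATTGG, matched on each strand, and HMMR holds the same stretch. TOP2A holds 2 CCAAT boxes in this stretch, and its CHR letters lie further upstream, starting at positions -194 and -151. PLK1 and HMMR, which were not called, each hold both elements in the usual order, with CCAAT upstream and the CHR letters at -29 in PLK1 and at -28 and -22 in HMMR. The printed promoters are examples and do not stand for all 33. Of the falls among the 33, 6 hold TTTGAA in the whole window and 7 do not. CDC25C and CENPE, also not called, hold neither TTTGAA nor CCAAT. Over the whole window and on either strand, TTTGAA was found in 23 of 33 member promoters (69.7%, Wilson 95% interval 52.7 to 82.6, covering counting error only), beside 9.63% of 10672 promoters of tested genes and 15.4% of all 27305 promoters. CCAAT was found in 25 of 33 (75.8%), beside 36.6% of tested genes, and both together in 19 (57.6%), beside 4.03%. An E2F core (TTTCGCGC, TTTGGCGC or TTTCCCGC, either strand) was found in 3 of 33 (9.09%), beside 4.45% of tested genes. The 2 elements can overlap, as in CDCA8, where TTTGAA runs into ATTGG.

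Calls were counted among genes with and without these letters, beside 17.7% called lower and 14.0% called higher over all genes tested. The share called among all tested genes with these letters was not counted. Among the 23 genes with TTTGAA, 6 fell and 1 rose, at a median log2 fold change of -0.11, and among the 10 without it 7 fell and 1 rose, at a median of -0.20. Among the 25 with CCAAT, 12 fell and 1 rose (median -0.14), and among the 8 without it 1 fell and 1 rose (median -0.05). These are counts over genes chosen together and carry no test, and a match is only a match of letters. The window follows 1 annotated start per gene, and the letters of some CHR variants, such as TTCGAA and TTTAAA, were left out of these counts. TTTAAA stands in lower case in the windows of CCNB1, PTTG1 and PLK1 above. With these variants counted, 29 of 33 promoters held CHR letters, so genes without TTTGAA are not genes without a CHR. Calls were not split with the variants counted.

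**Figure D2:**
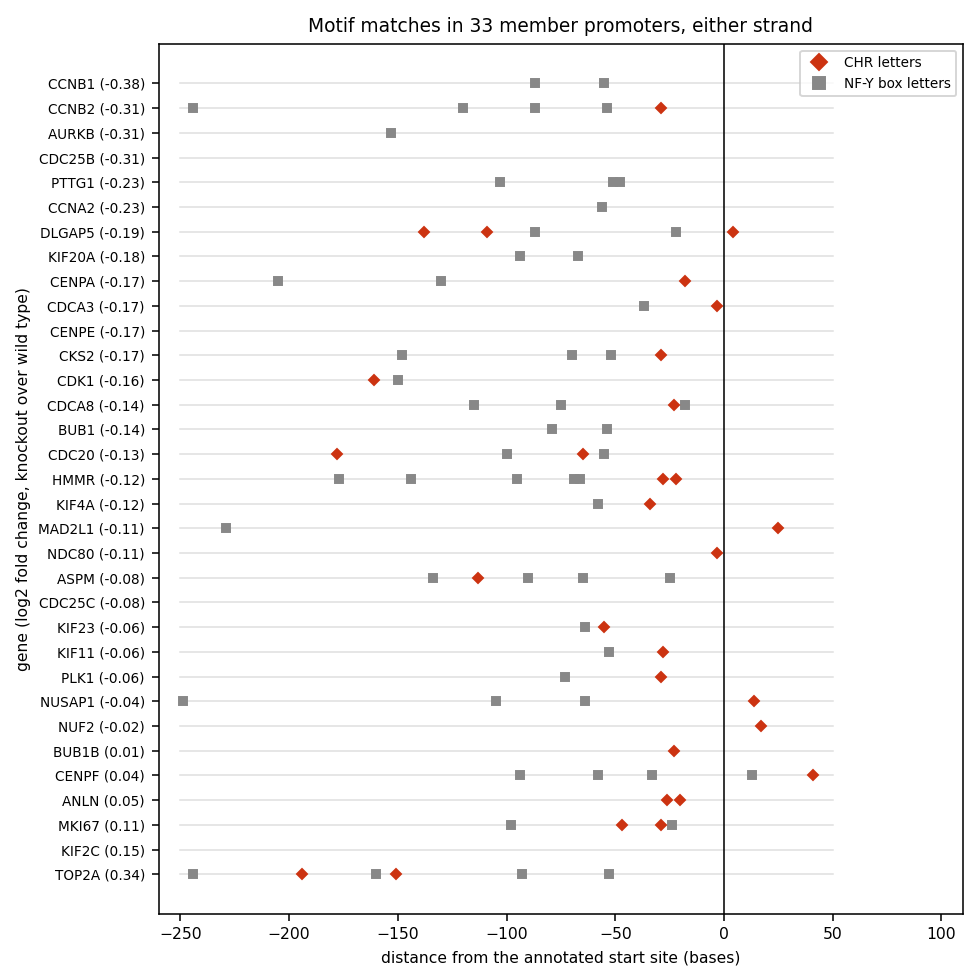
Each row is 1 of 33 promoters, ordered by log2 fold change (in brackets), and each mark is a match on either strand at its distance from the annotated start (diamonds the CHR letters TTTGAA, squares the NF-Y box CCAAT). Most matches lie within 150 bases before the start, and genes with and without them appear at the top, among the falls, and at the bottom.

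The cyclins, CDK1 and its regulators held 5 of the falls among 7 genes, none of the rises, and a median log2 fold change of -0.23. The falls are 71.4% of these genes, beside 17.7% over all genes, on few genes. CCNB1, which encodes cyclin B1, the main partner of CDK1 at mitotic entry, measured 303, 296 and 300.0 CPM in wild-type libraries against 228, 233 and 231 CPM in knockout libraries. Its 2 groups were each tight and far apart, and it fell from 299.7 ± 3.20 to 230.7 ± 2.39 CPM (SD, n = 3), which is -0.38 on the log2 scale with SE 0.03 (edgeR adjusted p = 1.49e-05). CCNB2, the cyclin B2 gene, measured 86.4, 81.4 and 80.7 CPM in wild-type libraries against 67.3, 65.3 and 67.4 CPM in knockout libraries. No knockout library reached the lowest wild-type library, and the log2 fold change was -0.31 with SE 0.05 (edgeR adjusted p = 0.000456). CCNA2, the gene of cyclin A2, which acts with CDK2 in S phase and with CDK1 in G2, measured 228, 204 and 214 CPM in wild-type libraries against 185, 181 and 186 CPM in knockout libraries. The groups were again apart, at a log2 fold change of -0.23 with SE 0.05 (edgeR adjusted p = 0.00308). Its 40 nearest expressed genes on chromosome 4 had a median of -0.18, and with that removed CCNA2 was at -0.05 and not called (edgeR adjusted p = 0.401). Exons of CCNA2 overlap those of EXOSC9 on the other strand by 254 bases.

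CDK1 itself was not called. It measured 203, 166 and 186 CPM in wild-type libraries against 165, 156 and 178 CPM in knockout libraries, so that the groups overlapped, with a log2 fold change of -0.16 with SE 0.07 (edgeR adjusted p = 0.112). Without wild-type replicate 2, its lowest wild-type library, it was called at -0.22 (edgeR adjusted p = 0.0293), and with all libraries and no filter on low counts at -0.17 (edgeR adjusted p = 0.0102). The 2 CDC25 phosphatase genes differed in their calls, a difference that was not tested. CDC25B, whose product activates CDK1 with cyclin B in G2, measured 59.2, 65.6 and 64.6 CPM in wild-type libraries against 51.2, 50.0 and 51.8 CPM in knockout libraries, all knockout values being the lower. Its log2 fold change was -0.31 with SE 0.05 (edgeR adjusted p = 0.00133). CDC25C, which acts at mitotic entry, averaged 27.6 ± 2.17 and 26.2 ± 1.56 CPM (SD, n = 3), with overlapping libraries (log2 fold change -0.08, edgeR adjusted p = 0.472). CKS2, a small CDK-binding subunit, measured 124, 116 and 133 CPM in wild-type libraries against 107, 107 and 118 CPM in knockout libraries. Its groups overlapped and its call was at the threshold (log2 fold change -0.17, SE 0.06, edgeR adjusted p = 0.0494). The call of CKS2 was lost without wild-type replicate 3 (0.188) and without knockout replicate 1 (0.187) or 2 (0.165), given as edgeR adjusted p, and also with RLE scaling (0.0582). It was further lost with the filter of at least 1 CPM (edgeR adjusted p = 0.0555), DESeq2 (0.0758), limma-voom (0.0523) and the neighbour median removed (edgeR 0.235).

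**Figure D3:**
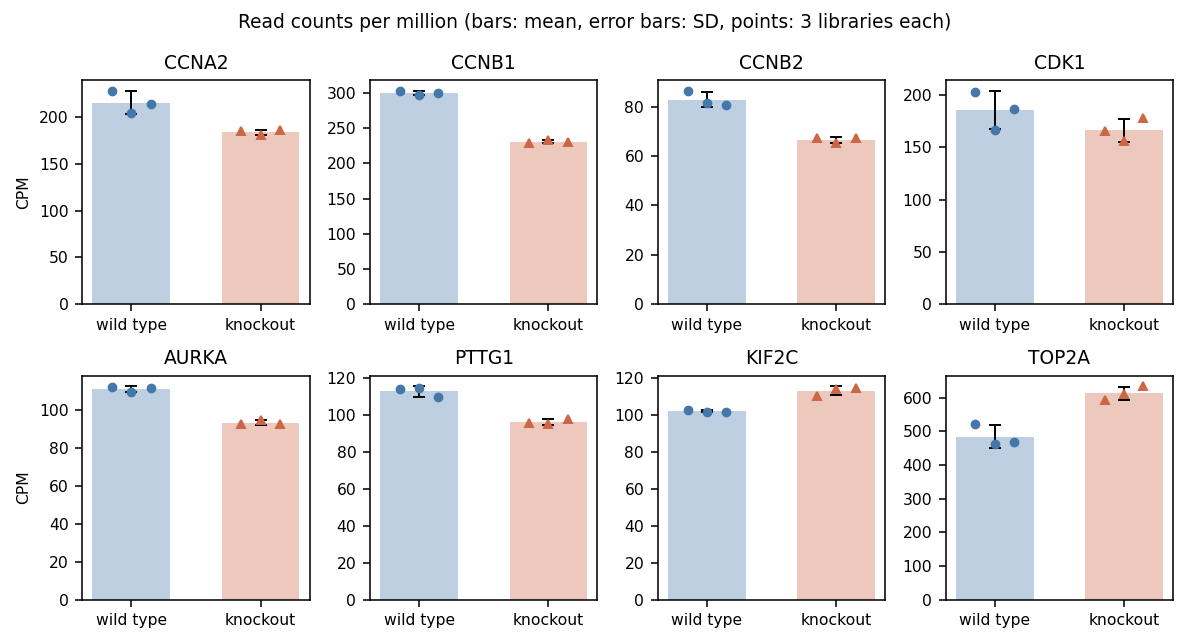
CPM of 8 genes in 3 wild-type (circles) and 3 SMARCA3 knockout libraries (triangles); bars are means, error bars are SD and each axis starts at 0. CCNA2, CCNB1, CCNB2, AURKA and PTTG1 have every knockout library below every wild-type library, KIF2C and TOP2A the reverse, and CDK1 overlaps.

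Among the mitotic kinases and the chromosomal passenger complex, both Aurora kinase genes fell while PLK1 was not called. AURKA, the centrosome and spindle kinase, measured 112, 109.7 and 112 CPM in wild-type libraries against 92.7, 95.1 and 92.8 CPM in knockout libraries, with the groups far apart (log2 fold change -0.25, SE 0.04, edgeR adjusted p = 0.000705). AURKB, the catalytic subunit of the passenger complex at centromeres, measured 108, 120.0 and 126 CPM in wild-type libraries against 97.3, 93.5 and 93.8 CPM in knockout libraries. Its wild-type libraries were more spread, yet the lowest of them lay above the highest knockout library (log2 fold change -0.31, SE 0.06, edgeR adjusted p = 0.00192). The neighbours of AURKA had a median log2 fold change of 0.04 and those of AURKB of -0.04. PLK1, the polo-like kinase of mitotic entry and spindle assembly, measured 127, 144 and 149 CPM in wild-type libraries against 141, 130.3 and 132 CPM in knockout libraries, which overlap (log2 fold change -0.06, edgeR adjusted p = 0.505).

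Of the passenger genes CDCA8 and BIRC5, the first fell and the second rose, while INCENP, the scaffold subunit listed with the other kinetochore genes, stood at 0.06 (edgeR adjusted p = 0.555). CDCA8, which encodes borealin, measured 98.9, 101 and 102 CPM in wild-type libraries against 92.7, 91.0 and 90.1 CPM in knockout libraries, with no overlap, and fell by 0.14 on the log2 scale (SE 0.04, edgeR adjusted p = 0.021). That call was lost with any library but wild-type replicate 1 left out (edgeR adjusted p of 0.0772 to 0.0953). With all libraries kept, the CDCA8 call was lost with DESeq2 (adjusted p = 0.0717) and with the replicate block (edgeR adjusted p = 0.0754). BIRC5, which encodes survivin, measured 238, 253 and 269 CPM in wild-type libraries against 290, 277 and 284 CPM in knockout libraries. All its knockout libraries were the higher, and it rose by 0.16 on the log2 scale (SE 0.05, edgeR adjusted p = 0.0228). BIRC5 lies near the end of 17q, where its 40 nearest expressed genes had a median of 0.28. With that median removed BIRC5 stood at -0.12 and was not called (edgeR adjusted p = 0.0873). Its call was also lost without wild-type replicate 2 (0.0502), without knockout replicates 1 (0.0619) or 3 (0.069), and with the replicate block (0.0536).

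The spindle checkpoint and kinetochore genes held 1 fall and no rise among 9 genes, too few to set apart from the 17.7% and 14.0% over all genes. BUB1, a checkpoint kinase that also marks centromeric histone H2A, measured 181, 174 and 171 CPM in wild-type libraries against 155, 161 and 162 CPM in knockout libraries. The groups did not overlap, and the log2 fold change was -0.14 with SE 0.04 (edgeR adjusted p = 0.0223). With 1 library left out, that call held only without wild-type replicate 3, and the adjusted p without another library was 0.053 to 0.168. With all libraries kept it was lost with DESeq2 (adjusted p = 0.077) and with the replicate block (edgeR adjusted p = 0.0751). BUB1B, which encodes the inhibitor BUBR1 of the APC/C, measured 128, 122 and 123 CPM in wild-type libraries against 125, 126 and 124 CPM in knockout libraries. These values sat on top of each other, at a log2 fold change of 0.01 (SE 0.04). MAD2L1, the checkpoint protein MAD2, and the kinase gene TTK (MPS1) had log2 fold changes of -0.11 and -0.08 with overlapping libraries (edgeR adjusted p = 0.255 and 0.401).

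The 5 kinetochore and centromere genes had no call and a median log2 fold change of -0.11. CENPA, the histone H3 variant of centromeres, measured 25.9, 25.1 and 26.2 CPM in wild-type libraries against 21.7, 23.1 and 23.7 CPM in knockout libraries. Every knockout library was the lower, but the test just missed the threshold (log2 fold change -0.17, SE 0.06, edgeR adjusted p = 0.0507), and limma-voom called it (adjusted p = 0.0456). CENPE, a plus-end-directed kinesin of kinetochores, had a log2 fold change of -0.17 with SE 0.06 (edgeR adjusted p = 0.0623) beside a neighbour median of -0.16, and was called without wild-type replicate 2 (0.035) or knockout replicate 3 (0.0362), and with no filter on low counts (0.00714). NDC80 and NUF2, which form the microtubule-binding end of the NDC80 complex, stood at -0.11 and -0.02. CENPF, a large protein of the outer kinetochore, stood at 0.04 and averaged 486 ± 22.8 CPM in wild-type libraries against 499 ± 5.76 CPM in knockout libraries (SD, n = 3).

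Spindle kinesins were mixed, with 1 fall, 1 rise and 3 genes not called. KIF20A (MKLP2), which carries the passenger complex to the central spindle, measured 105, 104 and 99.6 CPM in wild-type libraries against 87.9, 92.0 and 93.3 CPM in knockout libraries. It fell by 0.18 on the log2 scale (SE 0.04, edgeR adjusted p = 0.0114) beside a neighbour median of -0.08, and its call was lost without wild-type replicate 2 (0.0621), without knockout replicate 1 (0.0975) and with the neighbour median removed (0.11). Exons of KIF20A overlap those of BRD8, which rose by 0.17, on the other strand by 132 bases. KIF2C (MCAK), a kinesin that takes microtubules apart at centromeres, measured 102, 101 and 102 CPM in wild-type libraries against 110.4, 114 and 115 CPM in knockout libraries. Its wild-type libraries had the smallest coefficient of variation of the 38 genes (0.57%), and it rose by 0.15 on the log2 scale (SE 0.04, edgeR adjusted p = 0.0138). That call was lost without knockout replicate 2 (0.0635) or 3 (0.0648), with no filter on low counts (0.0638) and with the replicate block (0.0556). KIF11 (EG5), which pushes spindle poles apart, KIF23 (MKLP1), which acts in the central spindle, and the chromokinesin gene KIF4A had log2 fold changes of -0.06, -0.06 and -0.12. KIF4A had every knockout library below the wild-type libraries without a call (edgeR adjusted p = 0.0617).

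Of the 5 other spindle proteins, DLGAP5 was called. DLGAP5 (HURP), which stabilises microtubules near chromosomes, measured 141, 131 and 127 CPM in wild-type libraries against 114, 114 and 121 CPM in knockout libraries, with no overlap. It fell by 0.19 on the log2 scale (SE 0.05, edgeR adjusted p = 0.013) beside a neighbour median of -0.10. The call was lost without knockout replicate 1 (0.0747) or 2 (0.0621), and with the neighbour median removed (0.175). TPX2, the activator of Aurora A, stood at -0.05, NUSAP1, a microtubule bundling protein, at -0.04, HMMR, which acts at spindle poles, at -0.12, and ASPM, a spindle pole protein, at -0.08 on the log2 scale. ASPM libraries did not overlap between the groups, but the difference was not called (edgeR adjusted p = 0.119).

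Genes of ubiquitination around anaphase held 3 falls among 4 genes, or 75.0% beside 17.7% over all genes, on very few genes. Of the 3, CDC20 and CDCA3 were not called with DESeq2 (adjusted p = 0.114 and 0.0836) or with the replicate block (edgeR adjusted p = 0.108 and 0.103). CDC20 was also not called with RLE scaling (edgeR adjusted p = 0.0646), the filter of at least 1 CPM (edgeR adjusted p = 0.0585) or limma-voom (adjusted p = 0.0546). PTTG1, which encodes securin, the inhibitor of separase that the APC/C destroys at anaphase, measured 114, 114 and 109 CPM in wild-type libraries against 95.5, 94.9 and 97.6 CPM in knockout libraries. The groups were well apart (log2 fold change -0.23, SE 0.04, edgeR adjusted p = 0.00161), beside a neighbour median of -0.01. CDC20, the APC/C activator of anaphase, measured 182, 198 and 204 CPM in wild-type libraries against 181, 176 and 177 CPM in knockout libraries, so that wild-type replicate 1 came close to the knockout. Its call was at the threshold (log2 fold change -0.13, SE 0.05, edgeR adjusted p = 0.0492) and was lost with any library but wild-type replicate 1 left out (0.115 to 0.189). CDCA3, an F-box-like protein of mitotic entry, measured 44.7, 46.8 and 47.6 CPM in wild-type libraries against 42.5, 41.99 and 39.2 CPM in knockout libraries. It fell by 0.17 on the log2 scale (SE 0.05, edgeR adjusted p = 0.0349), a call also lost with any library but wild-type replicate 1 left out (0.0781 to 0.154). Exons of CDCA3 overlap GNB3 on the other strand by 549 bases. UBE2C, the ubiquitin-conjugating enzyme of the APC/C, measured 116, 125 and 124 CPM in wild-type libraries against 125, 113 and 108 CPM in knockout libraries, which overlap (log2 fold change -0.08, edgeR adjusted p = 0.342).

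The 3 genes of chromosomes and cytokinesis all stood above 0. TOP2A, the topoisomerase that untangles sister chromatids, measured 522, 462 and 469 CPM in wild-type libraries against 594, 612 and 634 CPM in knockout libraries. Every knockout library lay above every wild-type library, and the mean went from 484 ± 32.98 to 613 ± 19.7 CPM (SD, n = 3), or a log2 fold change of 0.34 with SE 0.05 (edgeR adjusted p = 0.000466). Its neighbours on chromosome 17 had a median of 0.11, and with that removed TOP2A remained called at 0.23 (edgeR adjusted p = 0.00791). MKI67, the Ki-67 protein that coats mitotic chromosomes and serves as a proliferation marker, measured 686, 693 and 656 CPM in wild-type libraries against 746, 755 and 699 CPM in knockout libraries. Its libraries did not overlap, but with a log2 fold change of 0.11 (SE 0.04) beside a neighbour median of 0.15 it was not called (edgeR adjusted p = 0.0627). It was called without wild-type replicate 1 (0.0285) or knockout replicate 3 (0.0405). ANLN, the cytokinesis scaffold anillin, stood at 0.05 with overlapping libraries.

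Levels were also summed by role in each library, so that abundant genes weigh most. Over all single genes tested, CPM ranges did not overlap for 24.4% (lower) and 21.2% (higher), and no such share was taken for sums. The 7 cyclin and CDK1 genes summed to 1033, 955 and 1007 CPM in wild-type libraries against 828, 818 and 859 CPM in knockout libraries. TOP2A, MKI67 and ANLN together summed to 1383, 1317 and 1295 CPM in wild-type libraries against 1509, 1546 and 1510 CPM in knockout libraries. The 2 sums moved in opposite directions, each without overlap, and in the second TOP2A alone averaged 484 CPM in wild-type and 613 CPM in knockout libraries. Spindle kinesins summed to 649 to 691 CPM in wild-type libraries against 632 to 645 CPM in knockout libraries, the other spindle proteins to 898 to 963 against 854 to 885 CPM, and the ubiquitination genes to 457 to 484 against 422 to 444 CPM, all lower without overlap. The kinases and passenger complex genes (684 to 758 against 687 to 714 CPM) and the checkpoint genes (628 to 707 against 611 to 654 CPM) overlapped. The 5 kinetochore genes summed to 833, 754 and 769 CPM in wild-type libraries against 760.0, 773 and 790 CPM in knockout libraries, which overlap. All 38 genes together summed to 6422 to 6752 CPM in wild-type libraries against 6352 to 6456 CPM in knockout libraries, with overlap.

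Wild-type replicate 1 was the highest wild-type library for 26 of the 38 genes, beside 41% of all genes tested, and knockout replicate 3 the highest knockout library for 19, beside 33.1%. For 8 genes, CDC25B, PLK1, AURKB, BIRC5, CDCA8, CDC20, UBE2C and CDCA3, wild-type replicate 1 was instead the lowest wild-type library. The part of this pattern in the calls was not tested beyond leaving out each library. Of the 17 calls, 7 held in each of 15 refits, namely CCNB1, CCNB2, CDC25B, AURKA, AURKB, PTTG1 and TOP2A, and CCNA2 held in 14. The refits were 6 that left out a library and 9 with another scaling, filter, tool or model.

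Each gene was also set beside its neighbours on the chromosome, the 40 nearest expressed genes, or 39 for MKI67 and 27 for NDC80. The 38 genes lie on 16 chromosomes, and the median of their neighbour medians was -0.03. Wherever a neighbour median was removed, it entered the fit as a fixed value from these same libraries. Its own error is therefore not in those adjusted p. Of the 38 genes, 28 lay below their own neighbour median and 10 above it. With that median removed, 10 of the genes were called lower and 2 higher, and 12 of the 17 calls remained. The 5 lost were those of CCNA2, CKS2, KIF20A, DLGAP5 and BIRC5. Neighbour medians ran from -0.20 for MAD2L1 and -0.18 for CCNA2, both on chromosome 4, to 0.28 for BIRC5.

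**Figure D4:**
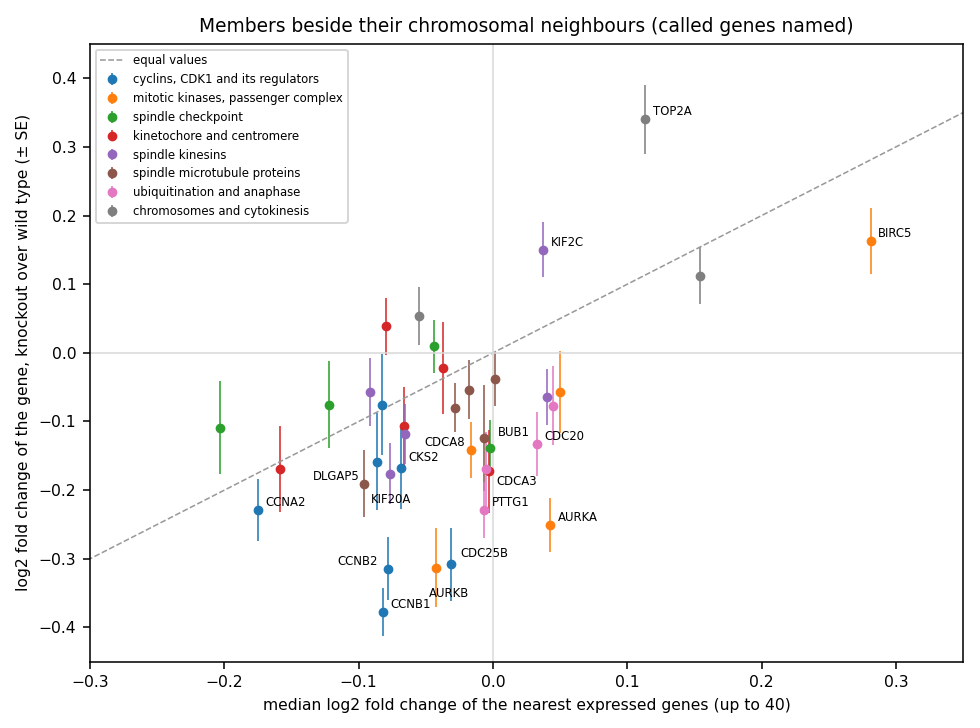
Each point is 1 of the 38 genes, with its log2 fold change (vertical, ± SE) against the median log2 fold change of its nearest expressed genes (horizontal), coloured by role, and the dashed line marks equal values. CCNB1, CCNB2, AURKA, AURKB, CDC25B and PTTG1 lie far below the line, TOP2A and KIF2C above it, while CCNA2 is close to it and BIRC5 below it.

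Other genes of the pathway were called about as often as all genes. Of 158 other genes of G2 and mitosis, all tested, 23 fell and 25 rose, which is 14.6% and 15.8% beside the 17.7% and 14.0% over all genes, and their median log2 fold change was 0.01. Those 158 come from 8 lists, which name CEP55, PRC1 and KIF20B under 2 lists each. The lists hold 8 to 38 genes, and their counts below stand beside the same 17.7% and 14.0% over all genes.

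Among 22 regulators of such promoters, 4 fell and 5 rose, with 2 falls without wild-type replicate 2 or knockout replicate 1, and 3 rises without knockout replicate 2. RB1, the retinoblastoma protein that the large T antigen of these cells binds, fell from 78.4 ± 8.02 to 50.9 ± 1.34 CPM (SD, n = 3), or a log2 fold change of -0.62 with SE 0.07 (edgeR adjusted p = 5.89e-05). E2F7, a repressor of E2F targets, fell by 0.27 on the log2 scale (edgeR adjusted p = 0.00475). NFYA, the regulatory subunit of the CCAAT-binding factor, rose from 104 ± 3.25 to 136 ± 3.01 CPM (log2 fold change 0.39, SE 0.04, edgeR adjusted p = 4.63e-05), and the activator gene E2F3 rose by 0.24. The genes of the direct activators were chosen for mention after their values were seen. FOXM1 fell by 0.16 on the log2 scale (edgeR adjusted p = 0.0104) and MYBL2, which encodes B-MYB, stood at -0.07 without a call (0.368).

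Of 17 genes that brake CDK1 or govern mitotic entry, 2 fell and 4 rose. The CDK inhibitor gene CDKN1A (p21) fell from 11.1 ± 0.681 to 7.85 ± 0.247 CPM (SD, n = 3; log2 fold change -0.50, SE 0.08, edgeR adjusted p = 0.000825) and the checkpoint kinase CHEK2 by 0.18. The call of CHEK2 was lost without wild-type replicate 2 or any knockout replicate, which left 1 fall, and without knockout replicate 3 the rises numbered 2. CDC25A, the phosphatase of the G1/S step and mitosis, rose by 0.15 (its neighbours had a median of 0.14) and GTSE1, a microtubule protein of G2, by 0.39, where the neighbours on chromosome 22 had a median of 0.47.

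Other kinetochore genes, 38 in all, held 3 falls and 4 rises. CENPC, which links centromeric chromatin to the kinetochore, fell by 0.27 and ZWINT by 0.11 on the log2 scale, while CENPM and the checkpoint gene BUB3 rose by 0.54 and 0.15, beside neighbour medians of 0.36 and 0.13. The call of ZWINT was lost with any of the 6 libraries left out, and 1 fall was left in all of these refits but that without wild-type replicate 3, while the rises numbered 7 without wild-type replicate 1. Of 8 other mitotic kinesins, KIF18B rose by 0.41, where its neighbours had a median of 0.32, and none fell. Of 30 other spindle and centrosome genes, 6 fell and 3 rose, with SPAG5 (astrin) at -0.35, CEP55, a midbody protein of abscission, at -0.39, and the microtubule plus-end genes CLASP1 and CLASP2 at 0.22 and 0.26. Without wild-type replicate 1 the rises numbered 5.

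Condensin and cohesin genes, 20 in all, held 3 falls and 4 rises. SMC4, the condensin ATPase, fell from 297 ± 15.2 to 197 ± 1.94 CPM (SD, n = 3; log2 fold change -0.60, SE 0.04, edgeR adjusted p = 2.43e-06), beside a neighbour median of -0.65 on chromosome 3, and NCAPG fell by 0.14. The call of NCAPG was lost, and 1 fall of the 3 was left, with any library but wild-type replicate 3 left out. The cohesin subunit gene STAG2 rose from 489.7 ± 35.2 to 657 ± 26.5 CPM (log2 fold change 0.42, SE 0.05, edgeR adjusted p = 0.000147), beside a neighbour median of -0.16 on the X chromosome, and NCAPH2 rose by 0.52 beside 0.47. Of 17 genes of the APC/C and its partners, 4 fell, among them ANAPC5 (-0.27) and ANAPC7 (-0.14), and 3 rose, among them CDC27 (0.27) and FBXO5, which encodes the APC/C inhibitor EMI1 (0.26), beside neighbour medians of 0.26 and 0.27. The falls numbered 1 without wild-type replicate 1 or 2 or knockout replicate 1 or 2, and 2 without knockout replicate 3, and in these refits ANAPC7 was not called. Of 9 cytokinesis genes, 2 fell and 1 rose. ECT2, the exchange factor that activates RHOA at the cell equator, fell from 175 ± 11.4 to 106 ± 2.78 CPM (log2 fold change -0.73, SE 0.05, edgeR adjusted p = 1.88e-06), beside a neighbour median of -0.48 on chromosome 3, and RHOA rose by 0.20 beside 0.17.

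G1 and S genes were called equally often in both directions, with 5 falls and 5 rises among 40 (12.5% each) and a median of -0.02. Cyclin D1, the CCND1 gene, rose from 68.3 ± 1.81 to 92.0 ± 1.64 CPM (SD, n = 3; log2 fold change 0.43, SE 0.04, edgeR adjusted p = 3.34e-05). The replicative helicase gene MCM5 rose by 0.56 beside a neighbour median of 0.32 on chromosome 22, while RRM1, a subunit of ribonucleotide reductase, fell by 0.16 and GINS3 by 0.22. Their summed level was 6988 to 7168 CPM in wild-type libraries against 7134 to 7184 CPM in knockout libraries. These groups overlap. The rises numbered 9 without wild-type replicate 1, and the falls 2 without wild-type replicate 2 or knockout replicate 1 or 3.

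**Figure D5:**
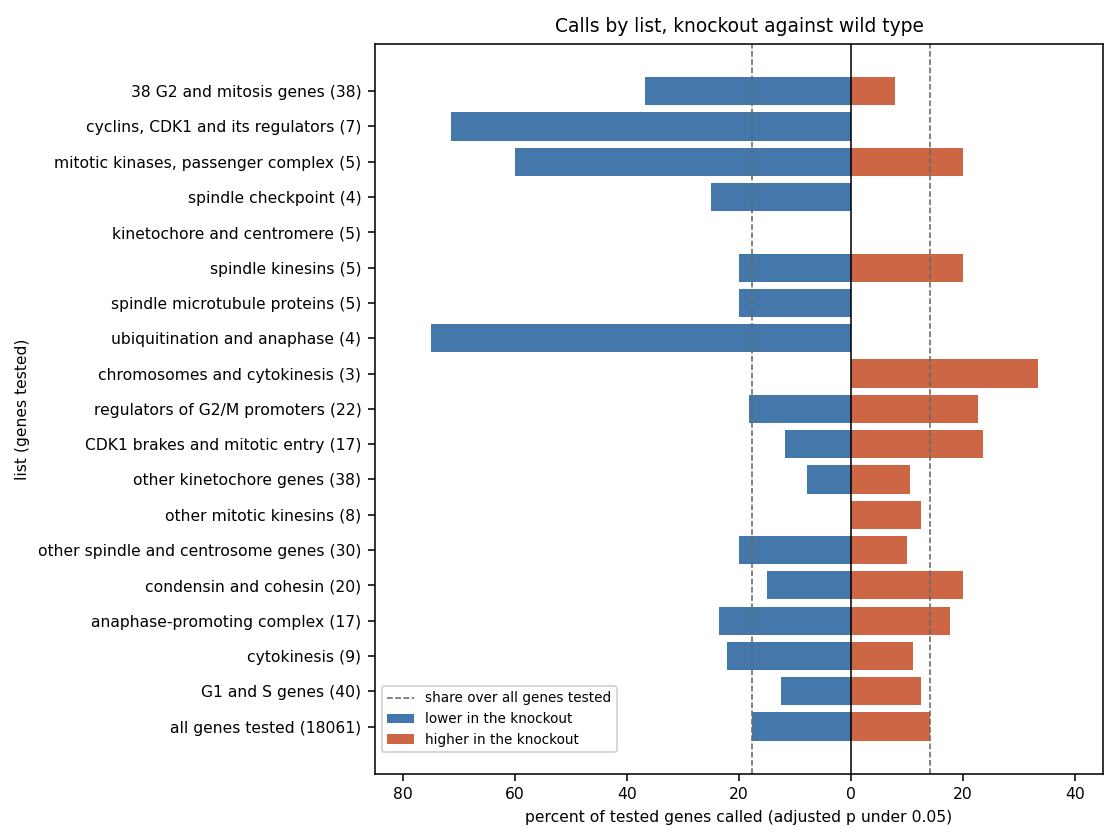
Bars give the percent of tested genes called lower (left, blue) or higher (right, orange) in the knockout for the 38 genes, each role among them, 9 lists of other cell cycle genes and all genes tested, with the number tested in brackets and dashed lines at 17.7% and 14.0%. The cyclin and CDK1 genes and those of anaphase ubiquitination and of the kinases and passenger complex reach far past the line on the left, on 7, 4 and 5 genes, and the kinetochore genes have no bar.

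Levels between genes were compared per length, as wild-type CPM per kilobase of annotated exon. CKS2 was the highest at 202 ± 14.2 (SD, n = 3) over 0.613 kb, followed by CCNB1 at 117 ± 1.25, CDC20 at 95.6 ± 5.50 and UBE2C at 94.5 ± 3.74, the last pair within their spread of each other. CDC25C at 8.27 ± 0.650 and CDCA3 at 8.20 ± 0.264 were the lowest, again within their spread. The length joins the exons of all annotated transcripts, 5.653 kb for CDCA3, and may exceed that of the transcripts present, so the order depends on it. Among all tested genes with a length, CCNB1 stood at percentile 98.2 and CDCA3 at 63.6. Within-group spread was small for these genes, with a median coefficient of variation of 4.54% in wild type and 2.77% in the knockout.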

How the data were processed

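The deposited values are raw read counts by gene symbol, whole numbers in a column for each library, neither normalized nor pooled. The libraries were made with a stranded poly(A) kit and read as pairs, per the labels' protocols. Build hg38 and the tools STAR 2.4, HTSeq 0.9.1, Trim Galore, Picard and DESeq2 appear, per the submitters' processing notes, without their roles. For the annotation release and strand setting, the sources used here say nothing. Exons of 12 of the 38 genes overlap a gene on the other strand, whose reads may not have been told apart.

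The fit used R 4.3.3 and edgeR 4.0.16. Low genes were removed with filterByExpr, libraries scaled by TMM (factors 0.997 to 1.005), and knockout tested against wild type with the quasi-likelihood F test, two-sided, with no covariate and Benjamini-Hochberg adjustment over 18061 genes. CPM are per 1000000 TMM-scaled counts of tested genes, except those of the cell type markers, which are over all counts. A floor of 3 counts is 0.0721 to 0.0906 CPM. No replicate pair was within sampling noise (chi-square over degrees of freedom 3.60 to 15.3), so each library counts as 1 sample.

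Positions, exon lengths and overlaps came from GENCODE 29 (same build), matched by symbol or a former symbol for 77.8% of tested genes. Neighbours are the 20 nearest genes on each side with 2 CPM or more on average (fewer near a chromosome end). Genes with all 6 library values in the text are those called, the cyclins and CDK1, and the gene with the smallest p per role. From each other list up to 2 called genes per direction with the smallest p are named. PLK1, BUB1B, UBE2C and MKI67 were given in full, and INCENP was named, after their values were seen. Members, lists and tests were chosen with earlier results of these data known. The procedure was tested on simulated counts.

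Alternatives were RLE factors, library size only, no filter, at least 1 CPM in 3 libraries, DESeq2 1.42.0, limma-voom (limma 3.58.1), robust dispersion, a replicate block, each library left out, a threshold of 0.01, removal of the neighbour median, and, for promoters, a window before the start only and CHR variants.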

Additional observations from a re-analysis of the deposited data

How the results depend on the processing

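The median of the 38 genes stayed between -0.13 and -0.08 over all alternatives. Falls numbered 9 with DESeq2, 7 at a threshold of 0.01, and 7 to 13 with 1 library left out (14 with all), and rises 1 with the replicate block, 1 at a threshold of 0.01 and 2 to 4 with 1 library left out. Counts over all genes were 5737, 3477 at a threshold of 0.01 and 4251 to 6156 with 1 library left out. With the neighbour median removed, signs turned, among the genes named in the text, for HLTF (0.0172), BIRC5 (-0.12), GTSE1 (-0.0774), SMC4 (0.0495) and FBXO5 (-0.0066), and for CDC25C (0.0072), MAD2L1 (0.0945), TTK (0.0462), NUF2 (0.0151), KIF11 (0.0346) and MKI67 (-0.0415), which were not called before. With 1 library left out, NUF2 ran from -0.0707 to 0.0539 and KIF11 from -0.0851 to 0.0124. The cause was not tested. TTTGAA was in 51.5% of member promoters before the start only, and in 87.9% with the variants counted, beside 8.31% and 17.2% of tested genes. The labels number the replicates but give no shared source, and same-numbered libraries did not deviate together (r = -0.37, -0.04 and -0.09 across genes). With the replicate block 10 genes fell, 1 rose and 4232 of all genes were called, and by these deviations no library correlated best with its own number. The 21 genes without a call are not shown to be equal between the groups.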
